A study of Homo sapiens with 22 samples.

Results

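The loss of labelled RNA in HEK293T cells, a human embryonic kidney line, was followed by BRIC-Seq in the cells that expressed the control hairpin (shControl) of a study of the ubiquitin ligase ZNF598. The cells took up bromouridine (BrU), a uridine analogue that is built into new transcripts, from medium with 150 µM BrU for 24 h. They were washed 2 times and put into BrU-free medium. Total RNA was taken at once (0 h) and after a chase of 2, 4, 6, 10 and 24 h, and the labelled RNA was captured from it with an antibody and sequenced. The 10 libraries of 0-10 h, 2 at each chase time, gave the slopes described here, and 1 further shControl library of 24 h and the 10 libraries of 0-10 h from shZNF598 cells, in which a hairpin targets ZNF598, were set beside them. Nothing in the labels says that the 2 replicates of a time came from separate cultures. The p-values rest on the spread between these libraries, which may be technical. The sources used here do not state which promoter drives the hairpin or whether the cells were 1 clone.

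The members were 13512 genes of 61156 with a named row in the files. Each gene was represented by the transcript row with its highest mean count over the 10 libraries, and it was kept when this row had a mean of at least 1 CPM, the usual scaling of counts to the library total. ZNF827 and the pseudogene PFDN1P1, both at 0.999 CPM, lay just outside this limit, and EOLA1-DT at 1.0002 and ENSG00000273167 at 1.0005 CPM just inside. Of the genes kept, 10994 were protein coding and 554 were long noncoding RNAs. FOS, ID1 and ZFP36 were under the limit, with 0.188, 0.680 and 0.118 CPM, and mitochondrially encoded mRNAs were not analysed here.

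Messenger RNAs are usually lost through removal of the poly(A) tail and the cap, followed by digestion from either end. The rate at which this happens differs between transcripts and is known to depend on the 3′ UTR, on codon content and on the proteins bound to the RNA. Short-lived mRNAs often encode regulators whose level has to change quickly, whereas mRNAs of metabolic enzymes and of the translation machinery are known to be long-lived. Replication-dependent histone mRNAs are a case of their own, since they end in a stem-loop instead of a poly(A) tail and are degraded when DNA synthesis ends. In a chase without BrU little new label is expected, so the change of an RNA's share over time was read as its loss relative to other labelled RNA. Some RNAs rose again relative to the bulk after 4 h, and whether their later share reflects loss alone was not tested.

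The slope is the change of log2 scaled count per hour of chase. It is relative to the bulk of the library, since counts were scaled by trimmed means of M-values (TMM) and spike-in RNA was not used here to scale them. A negative slope means that an RNA was lost faster than the bulk, a positive slope that it was lost more slowly, and neither gives a half-life. The slope was fitted as a straight line, so its SE and p-value also hold any departure of the course from a line. An RNA with close replicates but a curved course may thus not be called. The 10 libraries held 52352359 to 77093066 counts each, and the scaling factors went from 1.21 and 1.17 at 0 h down to 0.733 and 0.697 at 10 h. Replicates correlated across genes with r between 0.9951 and 0.997 from 2 to 10 h, but with 0.9788 at 0 h, where the excess of their difference over counting noise was also largest (chi-square per degree of freedom 28.4 against 3.89 to 5.79). Of 8 markers of HEK293 cells 6 passed 1 CPM, among them VIM (124 CPM), LIN28B (28.2 CPM) and the neurofilament genes INA, NEFL and NEFM, while PAX2 was at 0.0424 CPM and PAX8 at 0. No marker of blood cells, hepatocytes or keratinocytes passed 1 CPM, and of 5 markers of fibroblasts and endothelium only COL1A1 did (1.05 CPM).

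The replication-dependent histones were the list with the lowest median slope, and the element that sets their mRNAs apart can be read from their sequence. The histone 3′ stem-loop, the binding site of the stem-loop binding protein, is shown for 6 of them and for H2AX, with the stem and loop in capitals and up to 5 bases on either side. These members were chosen for the range of their slopes and for different versions of the element. All sequences are from GRCh38, read along the mRNA strand.

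H2AC15 (chr6:27837880-27837905, minus strand): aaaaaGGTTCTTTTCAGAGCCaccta

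H2BC5 (chr6:26158582-26158607, plus strand): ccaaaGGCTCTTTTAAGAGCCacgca

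H4C5 (chr6:26204996-26205021, plus strand): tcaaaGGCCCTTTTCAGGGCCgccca

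H2AC7 (chr6:26198784-26198809, minus strand): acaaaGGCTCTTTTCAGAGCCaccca

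H1-2 (chr6:26055740-26055764, minus strand): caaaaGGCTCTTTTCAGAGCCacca

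H3C10 (chr6:27810511-27810536, plus strand): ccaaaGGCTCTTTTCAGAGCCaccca

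H2AX (chr11:119094893-119094918, minus strand): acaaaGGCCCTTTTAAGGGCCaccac

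The stem-loop was searched by its pattern in the transcript row of each gene, and 51 of the 52 histone rows held it, H3C12 being the exception. The most frequent version, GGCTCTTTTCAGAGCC, was in 29 histone rows, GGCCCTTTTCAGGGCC was in 8 and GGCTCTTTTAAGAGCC in 6. Both H2AC7, with a slope of −0.33, and H3C10, with −0.08, carried the most frequent version, so these members with the same letters differed in slope. Among all 10994 protein coding rows 58 (0.528%) held the pattern. The 7 rows outside the list were H3-7, ENSG00000282988, H2AX, SHROOM1, FAM53B, EPB41L1 and NOP58. Of these H3-7 (slope −0.23), ENSG00000282988 (−0.30), H2AX (−0.20), SHROOM1 (−0.14) and FAM53B (−0.07) were called as lost faster than the bulk, and EPB41L1 (−0.02) and NOP58 (−0.01) were not. A match in these rows is a match of letters only.

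All 52 replication-dependent histone genes tested, of 68 in the files, were lost faster than the bulk with edgeR's quasi-likelihood test at the adjusted p limit of 0.05 used throughout. Over all genes tested 5670 (42%) were called in this direction. The median slope of the histones was −0.25, against −0.03 over all genes, and it ranged from −0.35 for H2AC15 to −0.08 for H3C10. The median log2 level of the list, relative to the mean of the 0 h libraries, was −0.84 and −0.81 in the replicates at 4 h, −1.91 and −1.80 at 6 h, and −2.15 and −2.36 at 10 h. At 0 h the 2 libraries themselves stood apart, at −0.33 in replicate 1 and 0.27 in replicate 2, and with each replicate fitted alone the median slope of the list was −0.22 and −0.28. Reads were kept only where they mapped to 1 locus, and near-identical histone copies may still share reads, so values of single copies are less certain than that of the family.

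H2BC5, which encodes a histone H2B, gave 67.7 and 98.6 scaled CPM at 0 h, 64.1 and 79.4 at 2 h, 40.5 and 42.3 at 4 h, 15.2 and 15.2 at 6 h, and 10.4 and 9.60 at 10 h. The values overlapped between 0 and 2 h, while the libraries of 4, 6 and 10 h each lay below all those before them. The slope was −0.34 ± 0.032 (SE, n = 10 libraries, adjusted p = 1.76e-06), and the level at 10 h was 8.31-fold lower than at 0 h. Its loss was uneven: the step from 0 to 2 h was −0.21 log2 units (adjusted p = 0.422), that from 4 to 6 h was −1.45 (adjusted p = 2.30e-05) and that from 6 to 10 h was −0.60 (adjusted p = 0.00472).

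H4C5, a histone H4 gene, shared with H2BC5 the lowest slope among protein coding genes of at least 5 CPM. Its scaled CPM were 34.2 and 52.1 at 0 h, 35.5 and 39.1 at 2 h, 22.6 and 24.6 at 4 h, 8.01 and 7.97 at 6 h, and 5.84 and 4.61 at 10 h. As with H2BC5, the 2 replicates differed most at 0 h and fell together from 4 h on, with a slope of −0.34 ± 0.034 (adjusted p = 2.92e-06). Of the 9 histone genes that are expressed outside of replication 3 were lost faster and 3 slower, with H2AX at −0.20 and MACROH2A1, a large variant of H2A, at 0.16. H2AX mRNA is known to exist in forms with and without the stem-loop.

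**Figure D1:**
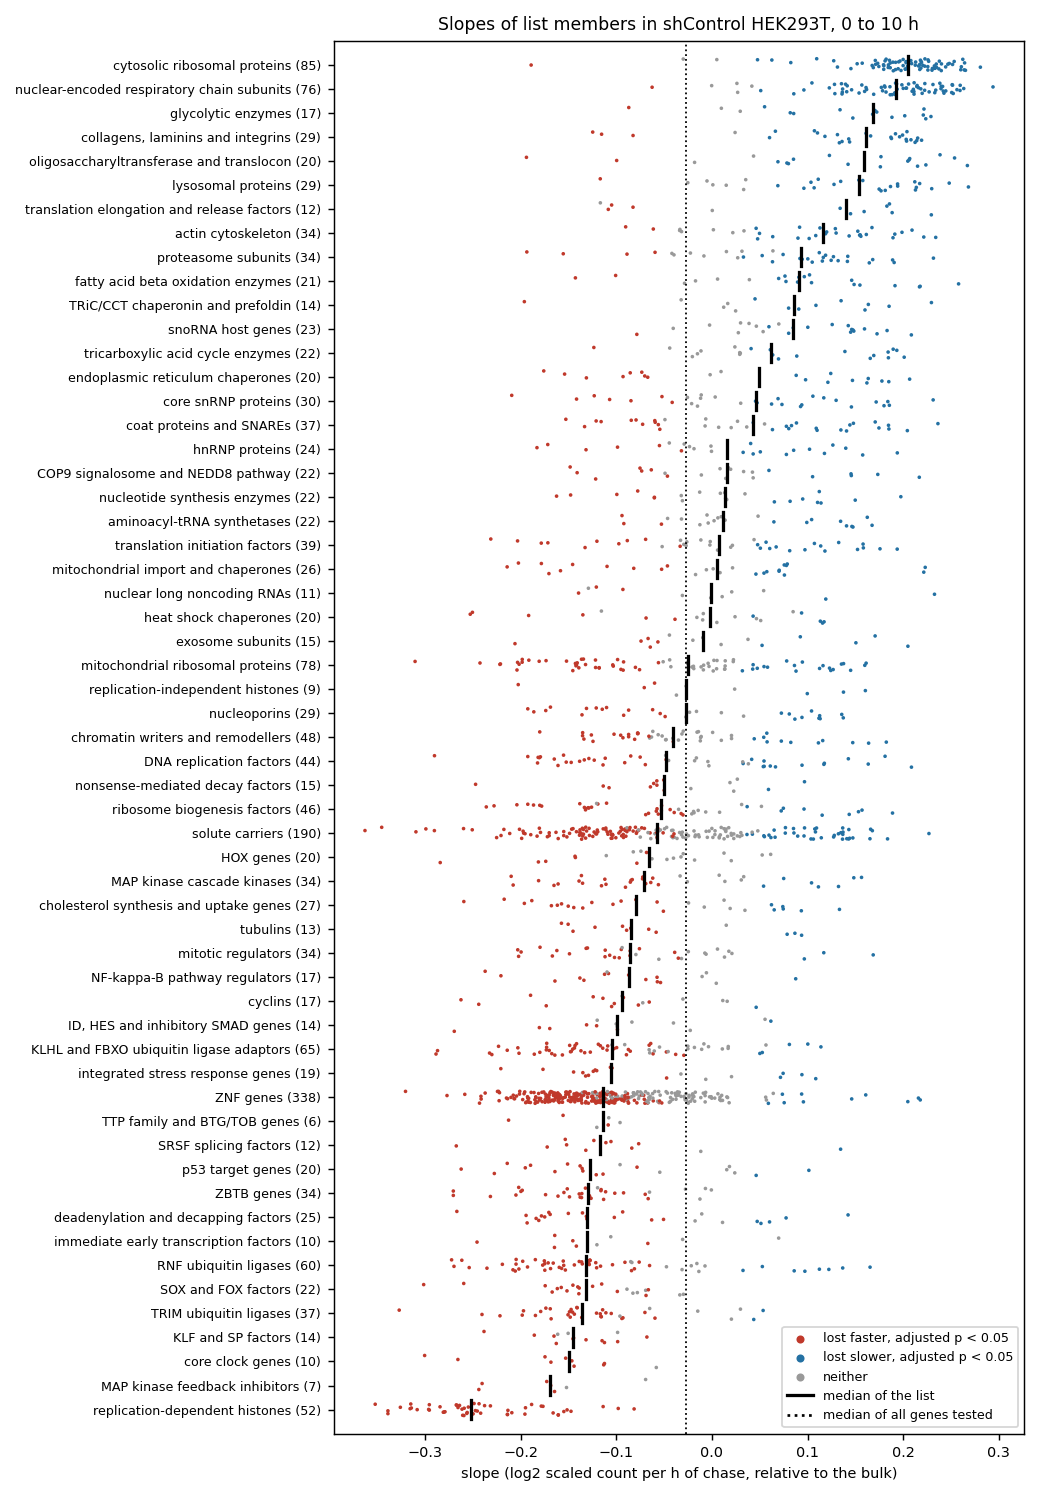
Slopes of the members of function lists in shControl HEK293T cells, with 1 point per gene on an axis of log2 scaled count per hour of chase relative to the bulk, red for genes lost faster and blue for genes lost slower at an adjusted p below 0.05, grey for neither. The bar of each list is its median and the dotted line the median of all genes tested (−0.03). The replication-dependent histones lie wholly below 0 and the cytosolic ribosomal proteins nearly wholly above it.

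Across all genes the median slope was −0.027 and the range from the 5th to the 95th percentile was −0.204 to 0.211, with a median SE of 0.021. Of 13512 genes 5670 (42%) were lost faster and 4303 (31.8%) slower than the bulk, so that 73.8% were called in either direction, and 10235 had an unadjusted p below 0.05. With library totals and no scaling factor this split became 8581 faster and 2364 slower and the median slope of all genes moved by −0.077, so slopes below are to be read relative to that median. Among protein coding genes alone 5219 (47.5%) were lost faster and 2897 (26.4%) slower. Replicates fitted apart gave slopes with r = 0.969 over these genes, a description across genes, which are not independent replicates.

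The 12 protein coding genes of lowest slope, at a mean of at least 5 CPM, were 6 histone genes and PRR3, TSPYL1, NUDT12, SPTY2D1, DBF4 and MRPL44, with slopes from −0.34 to −0.31. TSPYL1, a nucleosome assembly protein gene without introns, gave 115 and 143 scaled CPM at 0 h, 108 and 111 at 2 h, 45.6 and 52.1 at 4 h, 18.4 and 16.9 at 6 h, and 17.8 and 17.6 at 10 h. It fell at the steps from 2 to 4 h and from 4 to 6 h by more than 1 log2 unit each and then stayed level with the bulk (6 to 10 h, 0.01 log2 units, adjusted p = 0.972). DBF4, the activating subunit of the replication kinase CDC7, was at 12.8 and 12.2 scaled CPM at 0 h and at 1.61 and 1.96 at 10 h (slope −0.31 ± 0.030, adjusted p = 1.96e-06). The row of H4C8 is annotated as a nonsense-mediated decay isoform. SLC16A9, a transporter of the monocarboxylate family and below 5 CPM, had the lowest slope of all protein coding genes, −0.36 ± 0.034, and went from 4.06 and 4.56 scaled CPM at 0 h to 0.283 and 0.494 at 10 h.

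Transcription factors and feedback regulators made up most of the lists with low median slopes. Of 338 ZNF genes 223 were lost faster and 10 slower (median −0.11), and of 34 ZBTB genes, which also encode zinc finger factors, 28 were lost faster and none slower by the same test (median −0.13). The KLF and SP factors, which bind GC boxes, had 11 of 14 members lost faster and none slower (median −0.15), the SOX and FOX developmental factors 16 of 22 and none (−0.13), and the core clock genes 9 of 10 and none (−0.15). The lowest members of these lists were ZNF57 (−0.32), ZBTB21 (−0.27), SP2 (−0.24), SOX9 (−0.30) and NFIL3 (−0.30), a repressor in the clock. ZNF525 (0.22) was the highest of the ZNF genes.

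Inhibitors of signalling were also low. Among the MAP kinase feedback inhibitors, which are induced by the pathway they restrain, 5 of 7 were lost faster (median −0.17), with ERRFI1, an inhibitor of the EGF receptor, at −0.24 and SPRED1 at −0.24. DUSP1 (−0.15) and SPRY2 (−0.07) were not called. The p53 target genes had 13 of 20 lost faster and 2 slower (median −0.13). In that list the growth arrest and apoptosis genes SESN1 (−0.26), PMAIP1 (−0.23), FAS (−0.21) and CDKN1A (−0.16) were lost faster, BAX (0.02) and DDB2 (0.02) were not called, and FDXR, a mitochondrial reductase, was lost slower (0.10). The NF-kappa-B pathway regulators had 12 of 17 lost faster and 1 slower, NFKBIE being lowest (−0.24) and NFKBIB highest (0.09), although both encode inhibitors of the same factor.

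Ubiquitin ligases and their adaptors, which choose proteins for destruction, followed with 30 of 37 TRIM genes, 44 of 60 RNF genes and 43 of 65 KLHL and FBXO genes lost faster (medians −0.14, −0.13 and −0.10). TRIM21, a cytosolic antibody receptor, was lowest of these at −0.33 ± 0.036. FBXO28 gave 36.8 and 38.2 scaled CPM at 0 h, 27.1 and 30.7 at 2 h, 8.57 and 9.38 at 4 h, 6.28 and 5.99 at 6 h, and 6.51 and 5.62 at 10 h, so that nearly all of its relative loss was over at 6 h. RNF181 (0.17) and FBXW4 (0.11) were lost slower than the bulk.

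Factors of mRNA decay differed among themselves. Of 25 deadenylation and decapping factors 17 were lost faster and 5 slower (median −0.13). The decapping proteins DCP1B (−0.27), EDC3 (−0.19) and DCP1A (−0.18), the helicase DDX6 (−0.19) and 9 subunits of the CCR4-NOT deadenylase were among the faster ones. The large scaffold subunit CNOT1 (0.05), the exonucleases XRN1 (0.08) and XRN2 (0.06), EDC4 (0.05) and the deadenylase PAN2 (0.14) were lost slower. Among 15 nonsense-mediated decay factors 9 were lost faster and 2 slower, from SMG8 (−0.25) to MAGOHB (0.10), and among 15 exosome and exosome cofactor genes 5 were lost faster and 5 slower.

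The shape of the loss was read from a model with 1 slope before 4 h and another after it. Of all genes 2725 (20.2%) had a decline that slowed after 4 h, that is, a later slope above the earlier one, and 1855 (13.7%) one that quickened. The second count fell to 1150 without replicate 2 of 4 h and to 1077 without replicate 1 of 10 h, and it was 3639 with no scaling factor. With the change placed at 2 h the counts were 1269 and 599, and with only 1 library per time they were 758 and 57 without replicate 1 and 1253 and 163 without replicate 2. Any departure from a straight line was called for 6698 genes (49.6%). A called slowing together with an early slope below −0.2 log2 per hour was found in 1770 genes. Their median slope was −0.40 before 4 h and 0.03 after it. A low early slope and a higher later one were set by the choice of these genes. For 1133 of them the later slope was above 0, a return relative to the bulk. The group held 1635 protein coding genes, 243 of them ZNF genes. Among all protein coding genes 2124 (19.3%) slowed and 1683 (15.3%) quickened.

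**Figure D2:**
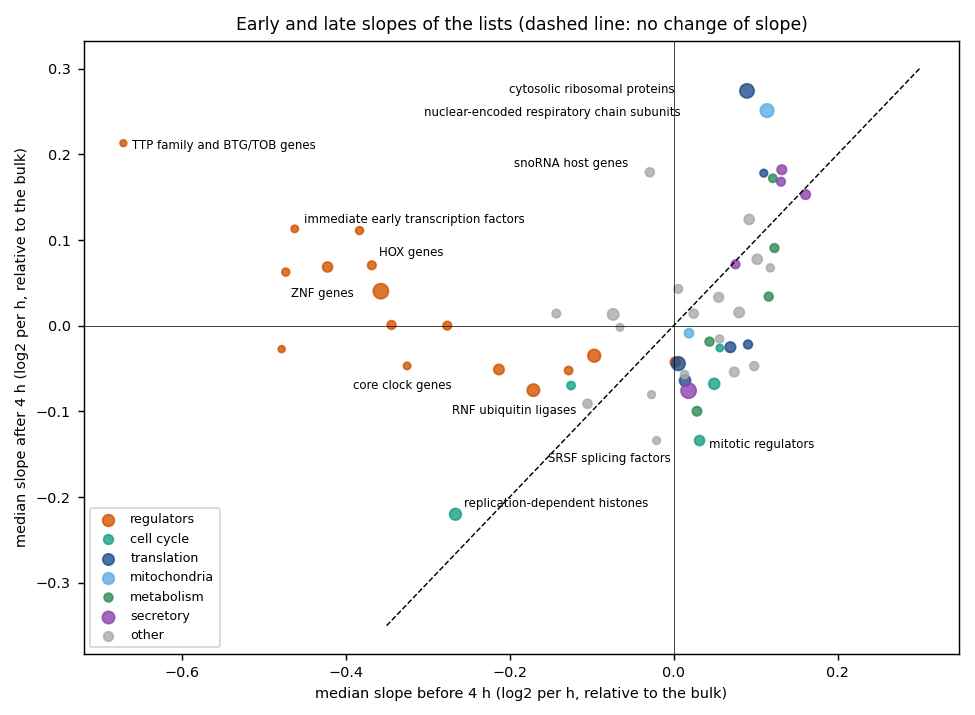
Median slope of each list before 4 h (horizontal axis) and after 4 h (vertical axis), both in log2 scaled count per hour relative to the bulk, with the point size growing with the number of genes tested and the dashed line where both are equal. Transcription factor lists and the TTP and BTG/TOB genes lie at the left and above the line, the MAP kinase cascade kinases (0.002 and −0.04) below it near the centre, the histones at the lower left near it, and ribosomal proteins and respiratory chain subunits at the upper right.

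JUN, a subunit of the AP-1 transcription factor and an immediate early gene, showed such an early loss and later return. Its scaled CPM were 82.8 and 95.6 at 0 h, 21.4 and 24.0 at 2 h, 9.47 and 9.20 at 4 h, 10.8 and 10.6 at 6 h, and 26.6 and 23.5 at 10 h. The 4 h libraries were thus the lowest, and the libraries of 10 h lay near those of 2 h. JUN was 9.55-fold lower at 4 h than at 0 h and 2.68-fold higher at 10 h than at 4 h, with slopes of −0.84 and 0.26 log2 per hour before and after 4 h. The change of slope was 1.10 ± 0.06 (adjusted p = 4.00e-08), and the step from 6 to 10 h alone was 1.23 log2 units (adjusted p = 1.29e-06). The straight slope over 0-10 h was only −0.16 ± 0.069 (adjusted p = 0.0470), and it was not called without either 0 h or either 6 h library, the slope of JUN being −0.13 and −0.11 without replicate 1 and 2 of 0 h.

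RHOB, an immediate early gene for a small GTPase, had the largest change of slope of the protein coding genes of at least 5 CPM. It gave 29.2 and 41.1 scaled CPM at 0 h, 9.86 and 12.02 at 2 h, 2.04 and 2.62 at 4 h, 2.62 and 3.16 at 6 h, and 9.31 and 8.65 at 10 h. It was 15.1-fold lower at 4 h than at 0 h and 3.86-fold higher at 10 h than at 4 h (change of slope 1.33 ± 0.08, adjusted p = 5.13e-08). Its slope over 0-10 h, −0.19 ± 0.081, was called in all 10 libraries (adjusted p = 0.0488) but not without either 0 h library, either 6 h library or replicate 2 of 2 h, and the slope of RHOB was −0.13 without replicate 2 of 0 h. The next largest changes at this level were in TXNIP, an arrestin-like inhibitor of glucose uptake, SOX4, ID2, JUN and ID3, and all of them were lowest at 4 h. SOX4 gave 44.1 and 43.3 scaled CPM at 0 h, 4.98 and 5.12 at 4 h, and 25.1 and 21.7 at 10 h. Its slope over 0-10 h was −0.08 ± 0.071 and was not called (adjusted p = 0.303). The absent call does not mean an absent loss, since the replicates were close and the course was not straight.

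The immediate early transcription factors as a list had 6 of 10 members lost faster, none slower, and 8 whose decline slowed after 4 h. Their median slope was −0.46 before 4 h and 0.11 after it. MYC went from 4.17 and 4.47 scaled CPM at 0 h to 0.676 and 0.563 at 4 h and back to 3.01 and 2.88 at 10 h, and IER2 reached 2.41 and 2.39 at 10 h, above its 0 h values of 1.48 and 1.89. The exceptions were SRF (slope −0.14) and JUND, which had the lowest slope of the list (−0.25) and a change of slope of 0.31 ± 0.13 that was not called (adjusted p = 0.0762). All 6 tested genes of the TTP family and of the BTG and TOB proteins, which recruit deadenylases to mRNA, slowed after 4 h, and they had the lowest median early slope of the lists (−0.67) and a late one of 0.21. Of 14 genes of the ID, HES and inhibitory SMAD list, which restrain differentiation and TGF-beta signalling, 11 slowed, HEY1 being the member lost fastest overall (−0.27).

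Slowing was also common in the other transcription factor lists: 261 of 338 ZNF genes, 29 of 34 ZBTB genes, 11 of 14 KLF and SP factors, 15 of 22 SOX and FOX factors and 17 of 20 HOX genes. Only 2 ZNF genes, and none of the other 4 lists, had a decline that quickened. The median log2 level of the ZNF genes relative to 0 h was −0.54 and −0.43 in the replicates at 2 h, −1.27 and −1.26 at 4 h, −1.36 and −1.54 at 6 h, and −1.03 and −1.09 at 10 h. HOX genes, which pattern the body axis, returned further, from −1.29 and −1.15 at 4 h to −0.46 and −0.69 at 10 h. HOXA6 was higher at 10 h (3.10 and 2.41 scaled CPM) than at 4 h (0.663 and 0.684), whereas HOXD13 kept losing until 6 h, with 3.60 and 3.64 scaled CPM, and was at 4.87 and 4.49 at 10 h. A relative rise does not say that the amount of an RNA rose, since counts were scaled to the bulk.

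**Figure D3:**
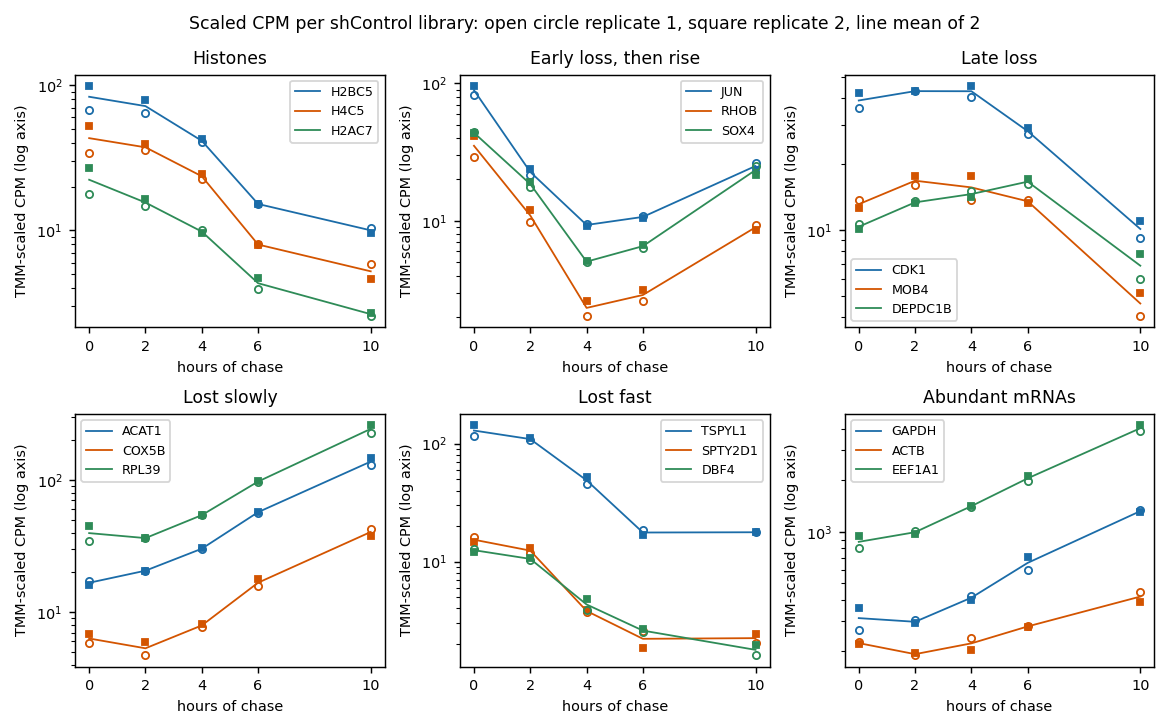
Scaled CPM (log axis) against hours of chase (0 to 10 h) for example genes in shControl cells, with replicate 1 as open circles, replicate 2 as squares and a line through the mean of the 2 replicates. JUN, RHOB and SOX4 are lowest at 4 h and higher at 10 h, the histone genes decline between 2 and 10 h, CDK1 is level until 4 h and drops at 10 h, and ACAT1 climbs throughout.

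Between neighbouring times 915 genes (6.77%) were lower and 147 (1.09%) higher at 2 h than at 0 h, 3134 (23.2%) lower and 2077 (15.4%) higher at 4 h than at 2 h, 2535 (18.8%) lower and 2291 (17%) higher at 6 h than at 4 h, and 3025 (22.4%) lower and 3814 (28.2%) higher at 10 h than at 6 h. The share of genes called was thus smallest at the first step, which rests on the 0 h libraries that differed most. The first of these steps gave 2221 and 1294 without replicate 1 of 0 h, 1455 and 569 without replicate 2 of 0 h, 293 and 12 without replicate 1 of 2 h, and 447 and 11 without replicate 2 of 2 h, and 78 to 84 higher without a library of 4 or 6 h. The higher count of the second step was 3636 and 3634 without replicate 1 and 2 of 0 h, 1136 and 564 without those of 2 h and 674 and 1070 without those of 4 h, and its lower count was 1888 without replicate 2 of 2 h. The third step gave 1625 lower and 1332 higher without replicate 1 of 4 h, 1262 and 1324 without replicate 2 of 4 h, 1539 lower without replicate 1 of 6 h, and 1368 and 1139 without replicate 2 of 6 h.

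The opposite shape, level with the bulk at first and lost late, was found in mitotic regulators, though not in every list of cell cycle genes, since 5 of 17 cyclins slowed and 2 quickened and 5 of 52 histones slowed and none quickened by the same test. Of 34 mitotic regulators 20 were lost faster and 3 slower, and 15 quickened against 2 that slowed, with a median slope of 0.03 before 4 h and −0.13 after. CDK1, the kinase that drives entry into mitosis, gave 36.0 and 42.1 scaled CPM at 0 h, 43.1 and 42.9 at 2 h, 40.5 and 45.4 at 4 h, 27.3 and 29.2 at 6 h, and 9.22 and 11.02 at 10 h. The libraries of 2 h lay above those of 0 h by less than the test called (adjusted p = 0.513), those of 4 h overlapped both, and the libraries of 6 h and then of 10 h were lower than all before. Its slope was 0.04 before and −0.35 after 4 h (change −0.40 ± 0.05, adjusted p = 1.40e-05). In the same list PTTG1 (0.17), CENPE (0.12) and CENPF (0.10) were lost slower, CDC25A (−0.17) slowed, and WEE1 (−0.09) slowed without being called for its overall slope.

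Besides CDK1 the largest quickening was in MOB4, EXTL2, DEPDC1B, SELENOT and PNPLA8. MOB4, a kinase regulator, gave 13.7 and 12.6 scaled CPM at 0 h, 13.7 and 13.3 at 6 h, and 4.07 and 5.19 at 10 h, and only the last step was called (−1.55 log2 units, adjusted p = 1.39e-06). Its slope over 0-10 h was −0.15 ± 0.042, and without replicate 1 and 2 of 10 h the slope of MOB4 was −0.10 and −0.12, the second of which was not called. DEPDC1B, a mitotic GTPase regulator, reached 16.2 and 17.1 at 6 h, above its 10.6 and 10.1 at 0 h, and was at 5.96 and 7.80 at 10 h. The SRSF splicing factors, which are known to carry ultraconserved poison exons, had 10 of 12 lost faster, 1 slower, and 7 that quickened. SRSF6 was lowest of these (−0.27 ± 0.028) and went from 62.0 and 60.2 scaled CPM at 0 h to 44.7 and 52.4 at 4 h and 11.8 and 11.3 at 10 h. The solute carriers, 190 genes that move small molecules across membranes, had 93 lost faster and 39 slower, with 48 that quickened and 11 that slowed. DNA replication factors had 16 of 44 that quickened and 3 that slowed, and cholesterol synthesis and uptake genes 7 and 3 of 27.

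**Figure D4:**
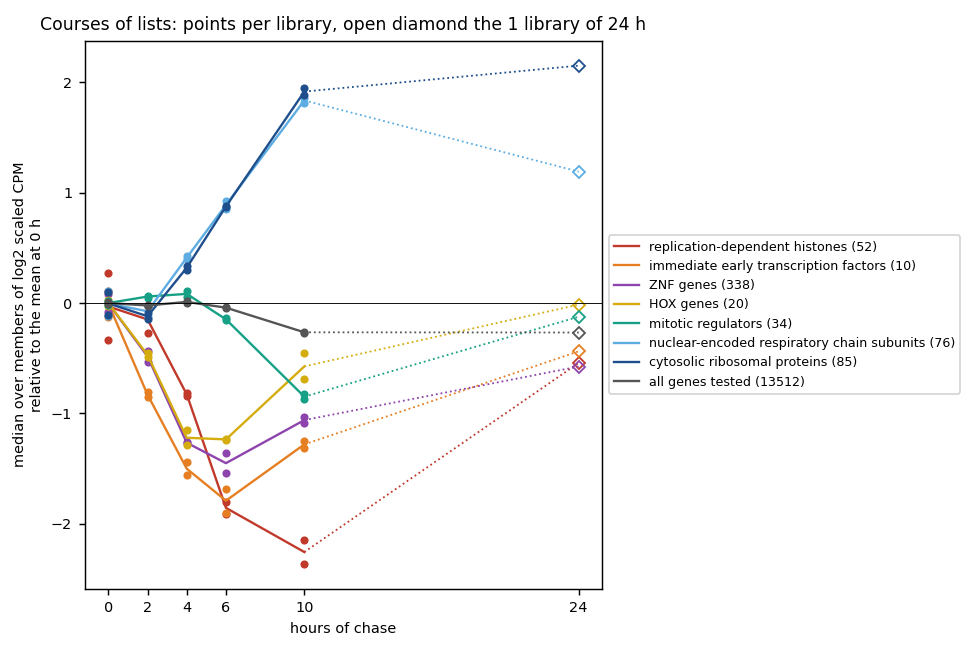
Median over list members of log2 scaled CPM relative to the mean of the 0 h libraries, against hours of chase, with 1 point per shControl library from 0 to 10 h, a line through their means and an open diamond for the 1 library of 24 h. The histones are at −2.15 and −2.36 at 10 h and at −0.54 at 24 h, while the cytosolic ribosomal proteins are at 1.88 and 1.95 at 10 h and 2.15 at 24 h.

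Cytosolic ribosomal proteins headed the lists of RNAs lost slowly. Of 85 tested 82 were lost slower than the bulk, against 4303 (31.8%) of all genes, 1 was lost faster and the median slope was 0.21. Their slope was steeper after 4 h for 70 of them, with a median of 0.09 before and 0.27 after. RPL39, a small protein of the large subunit, was highest: 34.4 and 44.7 scaled CPM at 0 h, 36.1 and 36.4 at 2 h, 54.1 and 54.1 at 4 h, 96.3 and 98.0 at 6 h, and 228 and 258 at 10 h (slope 0.28 ± 0.023, adjusted p = 6.79e-07). The libraries of 0 and 2 h overlapped and every later time lay above the one before. The exception was RPL7L1 (−0.19), a paralogue of RPL7 known to act in ribosome assembly. Ribosomal protein genes have many processed pseudogenes, so the choice of uniquely mapped reads can remove or misplace part of their counts.

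Most other parts of the translation machinery lay nearer to the bulk. The elongation factors EEF1A1 (0.23), EEF1G (0.19), EEF1D (0.18) and EEF2 (0.14) were lost slower, but the release factors ETF1 (−0.11) and GSPT1 (−0.08) were lost faster. PELO, a ribosome rescue factor, slowed after 4 h (change of slope 0.84 ± 0.06, adjusted p = 2.28e-07). Initiation factors had 16 of 39 lost slower and 10 faster, from EIF1B (−0.23) to EIF3I (0.19). Aminoacyl-tRNA synthetases had 9 of 22 slower and 3 faster. Ribosome biogenesis factors differed from the ribosomal proteins they assemble, with 26 of 46 lost faster and 9 slower (median −0.05, lowest BRIX1 at −0.24). Mitochondrial ribosomal proteins had 35 of 78 lost faster and 20 slower (median −0.03), from MRPL44 (−0.31) to MRPL40 (0.16).

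Enzymes of energy metabolism were lost slowly. Of 76 nuclear-encoded subunits of the respiratory chain 71 were lost slower and 1, UQCRFS1, faster (median 0.19). COX5B, a subunit of cytochrome c oxidase, gave 5.83 and 6.81 scaled CPM at 0 h, 4.74 and 5.92 at 2 h, 7.69 and 8.18 at 4 h, 15.6 and 17.8 at 6 h, and 42.9 and 37.9 at 10 h (slope 0.29 ± 0.028, adjusted p = 1.75e-06). Its libraries of 0 and 2 h overlapped, and it was 6.39-fold higher at 10 h than at 0 h. Glycolytic enzymes had 14 of 17 lost slower and 1 faster (median 0.17), with LDHB (0.23), GAPDH (0.22), ALDOC (0.22) and PGK1 (0.22) highest and the inducible hexokinase HK2 (−0.09) lowest. GAPDH, often used as a reference gene, went from 266 and 358 scaled CPM at 0 h to 1341 and 1300 at 10 h. ACTB, another common reference, had a slope of 0.10 ± 0.016. Fatty acid beta oxidation enzymes had 15 of 21 lost slower and 2 faster, from CPT2 (−0.14) to ACADVL (0.26), and tricarboxylic acid cycle enzymes 13 of 22 and 1, from DLST (−0.12) to IDH3B (0.20). The median of the last list (0.06) turned to −0.02 without a scaling factor and to −0.01 over 0-24 h.

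ACAT1, a mitochondrial thiolase of ketone body and isoleucine breakdown, had the highest slope of the protein coding genes. It gave 17.3 and 16.02 scaled CPM at 0 h, 20.6 and 20.6 at 2 h, 29.9 and 30.4 at 4 h, 56.4 and 57.6 at 6 h, and 128 and 146 at 10 h. Every time lay above the one before without overlap, and the level at 10 h was 8.25-fold higher than at 0 h (slope 0.32 ± 0.015, adjusted p = 5.45e-08). The other 11 genes of highest slope at 5 CPM or more were CPVL, COX5B, CHCHD2, CPE, GGH, PROS1, LAPTM4B, RPL39, TMEM256, MGST3 and IGFBP2. Of these CPVL, CPE, GGH, PROS1, LAPTM4B and IGFBP2 encode secreted, lysosomal or granule proteins, which pass through the endoplasmic reticulum.

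Of the other lists of secreted and membrane proteins 3 were also lost slowly, whereas the endoplasmic reticulum chaperones were divided. The solute carriers (above) had 48.9% lost faster and 20.5% slower, against 47.5% and 26.4% of all protein coding genes. Of 29 collagens, laminins, integrins and related matrix genes 25 were lost slower and 3, ITGA2, ITGA5 and ITGA6, faster (median 0.16). Their slopes before and after 4 h were alike (medians 0.16 and 0.15), and a change of slope was called for 1 member. Lysosomal proteins had 22 of 29 lost slower, with SMPD1 lowest (−0.12), and the oligosaccharyltransferase and translocon genes, which glycosylate and import proteins at the endoplasmic reticulum, 16 of 20, from SEC62 (−0.19) to RPN2 (0.27). The endoplasmic reticulum chaperones were split between 10 slower, such as PDIA3 (0.21), and 8 faster, such as HERPUD1 (−0.18), an unfolded protein response target, and the direction of their median (0.05) turned to −0.03 without a scaling factor.

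Actin cytoskeleton genes (26 of 34 slower, median 0.12), proteasome subunits (22 of 34, 0.09) and the chaperonin TRiC with prefoldin (9 of 14, 0.09) were also on the slow side. Within the proteasome PSMB3, of the proteolytic core, had a slope of 0.23 and PSMD12, of the regulatory lid, −0.19. Tubulins were divided by kind. The alpha tubulins TUBA1A, TUBA1B and TUBA1C were lost slower (0.08 to 0.09), TUBA4A (−0.16) and the 6 beta tubulins tested, from TUBB4B (−0.15) to TUBB (−0.06), faster. Cholesterol genes were lost faster in 16 of 27 cases, including the feedback regulator INSIG1 (−0.16), whereas FDPS (0.13) and ACAT2 (0.09) were lost slower. In the integrated stress response list the effectors TRIB3 (−0.22), DDIT4 (−0.18) and PPP1R15A (−0.12) were lost faster, and the kinases EIF2AK1 (0.07) and EIF2AK4 (0.07) and the amino acid enzymes ASNS (0.09) and PHGDH (0.11) slower.

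Several lists of complexes had members on both sides and medians from −0.002 to 0.05, against −0.03 for all genes. The core snRNP proteins of the spliceosome had 16 of 30 lost slower and 7 faster (median 0.05), the hnRNP proteins, which coat nascent RNA, 12 of 24 and 6 (0.02), and the coat proteins and SNAREs of vesicle traffic 18 of 37 and 11 (0.04). The medians of the first 2 of these lists were below 0 without a scaling factor. Heat shock chaperones had 5 of 20 slower and 6 faster, from their factor HSF2 (−0.25) to HSPD1 (0.12), the mitochondrial chaperonin. Mitochondrial import genes (11 of 26 slower, 10 faster), nucleotide synthesis enzymes (8 of 22 and 6) and the COP9 signalosome and NEDD8 pathway (6 of 22 and 7) were split in the same way. In the last, 11 genes quickened and none slowed by the test.

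Nucleoporins had 14 of 29 lost faster and 10 slower and a median of −0.03, the same as that of all genes. Of the chromatin writers and remodellers 17 of 48 were lost faster, a smaller share than the 42% of all genes, and 11 slower (median −0.04). MAP kinase cascade kinases had 21 of 34 lost faster and 7 slower (median −0.07). Cyclins, which time the cell cycle through their own turnover, had 11 of 17 lost faster and 1, CCNG1, slower, with CCNE2 lowest at −0.26. CCNG1 (0.05) was not called without either 0 h library, either 2 h library, or replicate 1 of 4 or 6 h or replicate 2 of 10 h. Of the chromatin genes 10 of 48 slowed, a share near the 20.2% of all genes, and 1 quickened. Of the nucleoporins 10 of 29 quickened, against 13.7% of all genes, and 1 slowed.

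Among noncoding transcripts the hosts of small nucleolar RNAs, whose spliced RNAs often have a 5′ TOP start, were mostly lost slower. Of 23 tested 14 were lost slower and 1 faster (median 0.09), and for 15 the slope was above its earlier value after 4 h, with medians of −0.03 before and 0.18 after. Such a change was called for 70 of 85 cytosolic ribosomal proteins, and for 156 of 554 lncRNA genes. GAS5 gave 15.5 and 18.4 scaled CPM at 0 h, 13.9 and 16.3 at 2 h, 17.1 and 19.0 at 4 h, 25.1 and 27.0 at 6 h, and 46.4 and 56.6 at 10 h. Of the 11 nuclear long noncoding RNAs 3 were lost faster, among them OIP5-AS1 (−0.14), and 2 slower. MALAT1 had a slope of 0.12 ± 0.037 (adjusted p = 0.0118), but its 0 h libraries were at 220 and 100 scaled CPM and its 10 h libraries at 377 and 376, and the gap at 0 h was wider than that between its replicates at the later times. Without replicate 2 of 0 h the slope of MALAT1 was 0.08. NEAT1 showed the same gap at 0 h (60.0 and 26.1) and a slope of 0.01 ± 0.037 that was not called.

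All 8 lncRNA genes named for the lowest or highest slopes overlap another tested gene, and whether the counting used strand is not stated, so reads may be shared. On the fast side the lncRNA row of H2BP1 (−0.27) and ENSG00000290735 (−0.25) overlap histone pseudogenes, the second also H3-7, ENSG00000259623 (−0.24) overlaps KLHL11 and ENSG00000273184 (−0.22) overlaps METTL2B and HILPDA. On the slow side ENSG00000282885 (0.26) had the same mean CPM and slope as the signal recognition particle RNA RN7SL2, and ENSG00000259001 (0.25) as RPPH1, the RNA of ribonuclease P. FAM153CP (0.24) had the slope of the pseudogene ENSG00000218227, and JPX (0.23) overlaps the ribosomal protein pseudogene RPSAP14 (0.31).

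Sequence features were compared with the slope over 10153 protein coding genes whose row had an annotated coding sequence. These are descriptions across genes, which are not independent, and the features are related to each other. Among the 6 features compared, the number of exon junctions per kb of coding sequence had the highest rank correlation with the slope at the limit of 1 CPM (Spearman 0.388, and 0.372 and 0.392 in the replicates fitted apart), while at 5 CPM it was 0.336 and that of 3′ UTR length was −0.341. It was 0.505 with the slope before 4 h and 0.042 with that after, and 0.426 and 0.128 at 5 CPM. In the quintile with fewest junctions 70.8% of genes were lost faster and 5.91% slower, with a median early slope of −0.28, and in the quintile with most 33.5% and 40.5%. The 185 genes without any junction, apart from histones, had a median slope of −0.33 before 4 h and 0.03 after, and 58.4% of them slowed, against 18.6% of genes with a junction. Leaving out the regulator lists kept this shape in the remaining 168 (−0.31 and 0.02).

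The length of the 3′ UTR had a rank correlation of −0.278 with the slope. In the quintile with the shortest 3′ UTRs 27.5% of genes were lost faster and 49.4% slower, and in that with the longest 61.3% and 12.8%. Transcript length (−0.151), coding length (0.042) and the GC content of the third codon position (0.066) had weaker relations, and the last was 0.133 in replicate 1 and 0.004 in replicate 2. By codon, the frequencies of GTG (r = 0.121) and ATC (0.117) had the highest and those of AGT (−0.142) and TCA (−0.135) the lowest correlation with the slope. Of all 61 codons 31 end in G or C. Among the 28 codons with a positive r 20 ended in G or C, and among the 33 with a negative r 22 ended in A or T. These r were all small and were not taken in each replicate apart.

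**Figure D5:**
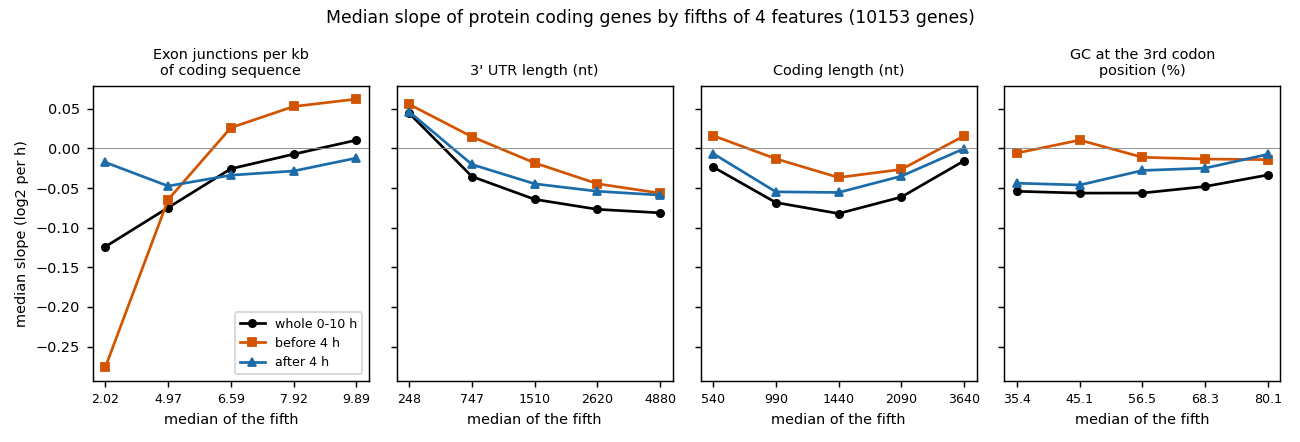
Median slope of 10153 protein coding genes (log2 scaled count per hour, relative to the bulk) in 5 equal groups of genes ordered by each of 4 sequence features, with the median of the feature in each group on the horizontal axis, for the whole 0-10 h (circles), before 4 h (squares) and after 4 h (triangles). The slope before 4 h rises from −0.28 to 0.06 with exon junctions per kb, while that after 4 h stays between −0.05 and −0.01.

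The AU-rich nonamer TTATTTATT, in DNA letters a core of the sites that TTP-like proteins bind, was searched on the mRNA strand of the 3′ UTR. It was found in 10.1% of genes, whose median slope was −0.08 against −0.05 without it. Genes with the nonamer had longer 3′ UTRs (median 3280 against 1370 nt), and within 3′ UTRs of 1000 to under 2000 nt the medians were −0.07 and −0.06. The sites of 3 named genes are shown with the nonamer in capitals, since SOX9 and PELO have early slopes of −0.81 and −0.63 and KLF16 one of only −0.21.

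SOX9 (chr17:72125498-72125526, plus strand): cttgctaaaaTTATTTATTttgtaaggag

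PELO (chr5:52802673-52802701, plus strand): acatgctataTTATTTATTtatttttttg

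KLF16 (chr19:1853692-1853720, minus strand): gaatcctggcTTATTTATTttcctctgtc

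The sequence of PELO holds a second, overlapping copy that starts 4 bases after the first and is partly in lower case. SOX9 gave 4.06 and 2.42 scaled CPM at 0 h, 0.945 and 1.36 at 2 h, 0.520 and 0.188 at 4 h, 0.343 and 0.356 at 6 h, and 0.566 and 0.371 at 10 h. The libraries of 0 and 2 h were above all later ones, and no step after 4 h was called. PELO gave 6.94 and 8.66 at 0 h, 1.42 and 1.33 at 4 h, and 3.26 and 3.31 at 10 h. KLF16 changed little by comparison, from 2.92 and 2.74 at 0 h to 1.74 and 1.57 at 4 h and 1.98 and 1.67 at 10 h (slope −0.07 ± 0.025, adjusted p = 0.0262), and the slope of KLF16 was not called without either 0 h library. The Pumilio motif TGTANATA was in the 3′ UTR of 32.3% of genes, with a median slope of −0.08 against −0.03 without it, and −0.08 against −0.06 within 3′ UTRs of 1000 to under 2000 nt. The start of the transcript was also read: 35 of 72 ribosomal protein rows (48.6%) began with C and 4 more pyrimidines, the start of a 5′ TOP motif, against 5.02% of all rows, and the 475 other genes that began so had a median slope of −0.02.

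At 24 h there was 1 library, with 21220829 counts, so its values have no replicate. The log2 ratio of 24 h over 10 h had a median of 0.12 over all genes. It was 1.58 for the histones, 0.28 for the cytosolic ribosomal proteins and between 0.29 and 0.95 for the transcription factor and MAP kinase feedback lists. It was −0.42 for the respiratory chain, −0.81 for the glycolytic enzymes, −1.02 for proteasome subunits and −1.23 for the oligosaccharyltransferase and translocon genes. Among the 1770 genes with an early loss and a later slowing it was 0.70. In H2BC5 the ratio was 1.86, in JUN 0.26 and in GAPDH −0.44.

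In the shZNF598 libraries the same fit called 5413 genes (40.1%) faster and 4208 (31.1%) slower than the bulk. The slope had the same sign in both cell populations for 94.0% of all genes and for 99.4% of those called in shControl, and r across genes was 0.977. ZNF598 itself, the target of the other hairpin, had a slope of −0.06 ± 0.016 in shControl, with 6.61 and 8.15 scaled CPM at 0 h and 5.54 and 4.12 at 10 h. The difference of slope between the hairpins was called for 10 genes (0.074%), with 573 at an unadjusted p below 0.05. By list the medians in shZNF598 were −0.24 for the histones, 0.19 for the ribosomal proteins, −0.11 for the ZNF genes, −0.10 for the immediate early factors and −0.06 for the mitotic regulators. For 52 of 52 histones, 85 of 85 ribosomal proteins and 328 of 338 ZNF genes the sign was the same as in shControl.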

How the data were processed

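Libraries were made from BrU-labelled RNA that was immunoprecipitated with an anti-BrdU antibody from 20 µg of total RNA, depleted of rRNA with Ribo-Zero, prepared with a TruSeq Stranded kit and sequenced on a HiSeq instrument as single reads of 50 nt. To make the deposited tables of counts per transcript, the authors trimmed the reads with fastp, removed reads of noncoding RNA, aligned the rest with STAR 2.7.0a to hg38 with GENCODE 32, keeping reads with at most 1 mismatch and 1 locus, and counted them with featureCounts. The strand setting of the counting is not given in the sources used here. A second numeric column of the files, which follows the transcript length, was not used.

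Each file held 227264 rows. Gene names and sequences came from GENCODE 44 on GRCh38, which matched 98.4% of rows (92.2% with the same version), and unmatched rows held 2.25% of the counts. One gene was 1 row, as described above. Counts of the 10 shControl libraries of 0-10 h were TMM-scaled and fitted on hours of chase with edgeR 4.0.16 (quasi-likelihood, R 4.3.3), with Benjamini-Hochberg adjustment over all 13512 genes. Further fits had a change of slope at 4 h, or chase time as a factor. The shZNF598 slopes came from the same fit on the 10 shZNF598 libraries of 0-10 h alone. The difference of slopes came from a fit of 20 libraries with an interaction term. The ratio of 24 over 10 h used a pseudocount of 0.1 CPM. On data simulated for these 13512 genes the slope fit called 97% of 100 genes given a slope of 0.1 and 100% of those given 0.2, with 22 false calls, and the fit with a change of slope called 57% of changes of 0.2 and 97% of changes of 0.4, with 17 false calls. Each of these sizes was given to 100 genes only, whereas 73.8% of genes were called in the shControl libraries. How the TMM scaling and the fits do when most genes change was not tested. Performance of the fits with a wider spread at 0 h, deviations shared by same-numbered libraries, or other curved courses was not tested. Other tools were limma 3.58.1, DESeq2 1.42.0, Python 3.11.15, pandas 2.3.3, numpy 2.4.6 and matplotlib 3.10.9.

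The members and the function lists were chosen with earlier results of these data known. Single genes are named where they were among the 12 lowest or highest protein coding slopes or the 4 lowest or highest lncRNA slopes at a mean of at least 5 CPM with the same sign in both replicates, the lowest or highest of a list, any member of a list of at most 30 genes, among the 6 largest changes of slope in either direction, or a fixed example such as GAPDH or MYC. The genes with a stem-loop outside the histone list, the genes that overlap a named lncRNA, and CENPE, CENPF, CDC25A and WEE1 among the mitotic regulators were named after their values were seen. Scaling, the filter on low counts, the time window, the place of the change of slope, the test and the libraries used were varied in turn.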

Additional observations from a re-analysis of the deposited data

Results flagged for a closer look

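The slope differed between shControl and shZNF598 cells for 10 genes by the interaction of hairpin and hours of chase (edgeR, adjusted over 13512 genes), and it was lower in shZNF598 for each of them. The difference (shZNF598 minus shControl) was −0.259 log2 per hour for RPN1, a subunit of the oligosaccharyltransferase, with a slope of 0.18 in shControl and −0.08 in shZNF598 (adjusted p = 7.33e-09). RPN1 gave 111.5 and 133.4 scaled CPM at 0 h and 366.8 and 409.2 at 10 h in shControl, against 55.4 and 54.7 and then 29.6 and 30.5 in shZNF598, so its level already differed at 0 h. AK3, a mitochondrial adenylate kinase, differed by −0.232 (adjusted p = 0.00443), the lysosomal lipase LIPA by −0.228 (adjusted p = 2.25e-07), the reticulon RTN3 by −0.213 (adjusted p = 2.25e-07) and the unclassified transcript ENSG00000278943 by −0.21 (adjusted p = 1.40e-05). For these 4 as well the shZNF598 libraries of 0 h lay below those of shControl.

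The other 5 differences were smaller and lay between −0.113 and −0.1. They were −0.113 for SAP18 (adjusted p = 0.0252), −0.105 for the splicing helicase DDX46 (adjusted p = 0.0312), −0.104 for the malate dehydrogenase MDH1 (adjusted p = 0.0163), −0.102 for PSMD10, a proteasome assembly factor (adjusted p = 0.0269), and −0.1 for the centrin CETN2 (adjusted p = 0.0163). The shControl slopes of these genes rest on the same libraries as all others above. No value was tested for standing apart from its group, since each time had 2 libraries.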

How the results depend on the processing

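Over 33 other settings the slopes of the 162 named genes kept their call, or its absence, in 4507 of 4823 cases. They lost the call in 231, gained it in 55 and turned, that is, changed sign with either fit called, in 30. Their changes of slope kept their call in 333 of 336 cases, with 3 calls lost. Many of these genes were named for the size of a called slope, which favours a kept call. Medians of the lists and of all genes stayed within a limit set by the difference between replicates in 1067 of 1739 cases, moved further in 656 and turned in 16. No named slope turned with RLE (DESeq2) or upper quartile factors, totals over 1 row per gene, or TMM over protein coding genes, which was added after the data were seen. The median of the TTP family and BTG/TOB genes could not be given at 5 CPM, where no member was left. The limits are the 2 libraries per time, the wider spread at 0 h, the 24 h time with 1 library and the scaling to the bulk, which leaves absolute rates unknown. The causes of the changes below were not tested, apart from the number of genes or rows tested where it is given.

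With no scaling factor 8581 genes were lost faster and 2364 slower, 3639 quickened, and HES6 (−0.0151), TRIM16 (−0.0241), CCNG1 (−0.0312) and the medians of core snRNP proteins (−0.0309), endoplasmic reticulum chaperones (−0.0284), hnRNP proteins (−0.0616) and tricarboxylic acid cycle enzymes (−0.0152) turned. At 5 CPM, with 7948 genes tested, counts were 3517 and 2803, with 1542 slowed and 1158 quickened, and the rank correlations were −0.222 for transcript length, −0.00953 for coding length, −0.341 for 3′ UTR length and 0.336 for exon junctions. Over all 79765 transcript rows they were 32010 and 26269, with 11948 and 7402.

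Over 0-4 h 3142 genes were faster and 2212 slower, and IER2 (−0.343), CRY1 (0.108), ZNF525 (−0.00832), HOXA6 (−0.423), DLST (0.00601), MOB4 (0.0664), EXTL2 (0.0812), CDK1 (0.0383), DEPDC1B (0.126), SELENOT (0.0367) and PNPLA8 (0.0296) turned, as did the medians for cholesterol (0.0164), DNA replication (0.034), mitosis (0.0273), nonsense-mediated decay (0.0185), ribosome biogenesis (0.0156) and snoRNA hosts (−0.0376). Over 0-6 h IER2 (−0.146), CRY1 (0.057), MOB4 (0.00107), DEPDC1B (0.109) and DNA replication (0.0161) turned. Over 0-24 h 1694 were faster and 1599 slower, and HES6 (−0.0223), CCNG1 (−0.0358), H3C10 (0.0473), CPT2 (0.00623), MAGOHB (−0.0307), SNHG16 (0.0156), MALAT1 (−0.0117) and the medians of hnRNP proteins (−0.000732), proteasome subunits (−0.00309), ribosome biogenesis (0.00121) and tricarboxylic acid cycle enzymes (−0.0128) turned. Over 2-10 h SPRY2 (0.167), BTG2 (0.181), ZBTB2 (0.0972), JUN (0.0428), MYC (0.211) and the TTP and BTG/TOB median (0.0351) turned. With the change of slope at 2 h 1269 genes slowed and 599 quickened.

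With the replicate number as a block (replicate block) 5557 genes were faster and 4262 slower, 2629 slowed and 1798 quickened, and 247 were higher at 2 h than at 0 h against 147. Deviations of same-numbered libraries correlated between −0.172 and 0.517 over 10 pairs of times, 5 of them over 0.1. Libraries of the same number thus shared part of their deviation at some times, which the main fit, without a block, did not take into account. Leaving out 1 library or 1 replicate number gave 3505 to 5644 genes lost faster, 3359 to 4315 slower, 758 to 2677 slowed and 57 to 2374 quickened. Leaving out 1 library gave 293 to 2221 lower and 11 to 1294 higher at 2 h than at 0 h, 1888 to 3617 and 564 to 3636 at 4 h than at 2 h, 1262 to 3386 and 1139 to 3209 at 6 h than at 4 h, 2128 to 3995 and 3019 to 4169 at 10 h than at 6 h, and 5127 to 9685 departures from a line.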

Other observations

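All 11 nuclear pseudogenes of mitochondrial genes tested were lost faster than the bulk, from MTCO3P12 at −0.42 to MTND5P11 at −0.19. Their median of −0.26 lay near that of the replication-dependent histones (−0.25). MTCO1P12 gave 458.9 and 178.8 scaled CPM at 0 h and 64.2 and 42.4 at 10 h, so the replicates at 0 h stood further apart than those at 10 h. Reads of mitochondrial transcripts and of these copies cannot be told apart where their sequences are the same.

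Some small structured RNAs rose relative to the bulk, named here after their values were seen. The authors first removed reads that aligned to noncoding RNAs, so the counts of these genes may hold only part of their reads. Whether unlabelled RNA was carried along in the capture was not tested. The signal recognition particle RNA RN7SL1 had a slope of 0.26, RPPH1 of ribonuclease P 0.25, the telomerase RNA TERC 0.21, RN7SK, which holds a transcription elongation factor, 0.16, and RMRP 0.099, all at an adjusted p below 0.05 (edgeR). The 6 snoRNA genes tested had a median slope of 0.061, with a lowest adjusted p of 0.437 (edgeR), and of 10 miRNA genes 7 were lost slower and 2 faster. Of 1488 processed pseudogenes 1029 were lost slower and 197 faster (median 0.13), and for 1186 with a tested parent gene the median absolute difference of slope from the parent was 0.0196 log2 per hour. A protein coding gene represented by a retained-intron row (286 genes) had a median slope of −0.0016 and one represented by a nonsense-mediated decay row (375 genes) −0.026, against −0.047 over all protein coding genes.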
